A study of Mus musculus with 20 samples.

Results

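The complement and coagulation factors are the plasma protein cascades that mark microbes and damaged cells and that form and dissolve clots. A named list of 39 genes was followed, of 27962 symbols read by the arrays: the 3 chains of C1q, 4 other genes made largely by leukocytes, 14 complement genes and 18 coagulation or fibrinolysis genes made largely by hepatocytes. A probe belonged to a member when its symbol in the files, or the current symbol of its accession, was on the list, and the brightest probe was taken for each gene. All 39 were found.

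RNA came from the liver and white adipose tissue (WAT) of male C57BL/6 mice that were 7 months old and had been kept for 21 weeks on a high fat diet (HFD) with 35% fat. WT(HFD) mice carried intact Cd44 and CD44KO(HFD) mice lacked it in every cell, so the knockout is not restricted to a tissue, and the null allele had been bred onto C57BL/6J by repeated backcrossing. The design asks which genes differ between the genotypes under an HFD in each tissue, with 5 arrays for each genotype and tissue, and no mice on a normal diet are included. The WAT is not further specified in the labels, and since these are bulk tissues, fewer cells of a type and less RNA per cell cannot be told apart.

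A level below is the log2 fluorescence intensity of a probe minus the log2 75th percentile of its array, so that 0 is the 75th percentile. Between 57.4% and 61.9% of spots were well above background on liver arrays and between 63.2% and 69.5% on WAT arrays, except on WT(HFD) WAT replicate 1, which had 89.5% and stood apart. Cd44, the deleted gene, had a level of 0.48 ± 0.28 in WT(HFD) liver against -3.74 ± 0.41 in CD44KO(HFD) liver, and 4.07 ± 0.37 against -0.51 ± 0.13 in WAT (SD, n = 5 each). Both tissues carried the markers of their labels: the hepatocyte marker Alb was at 10.25 ± 0.15 in WT(HFD) liver, and the adipocyte marker Adipoq lay between 5.88 and 6.92 in WT(HFD) WAT and at or below -3.46 on all liver arrays.

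C1q binds antibody or damaged cells and, with the proteases C1r and C1s, starts the classical pathway of complement. The mannose-binding lectins Mbl1 and Mbl2 start complement by another route, through Masp1 and Masp2, while factor B and properdin drive the alternative pathway. All routes cleave C3 and end in the pore built from C5b to C9. Coagulation runs from factor VII or from the contact factors to factor X and thrombin, which turns fibrinogen into fibrin. Hepatocytes make most of these proteins, whereas C1q comes mainly from macrophages, and adipocytes secrete several complement components.

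In liver, 11 of the 18 coagulation and fibrinolysis genes were higher in CD44KO(HFD) mice, whereas 1 of the 14 liver-made complement genes and none of the C1q chains passed the test. Of the 38 members bright enough to test, 12 were called higher and 0 lower (limma, adjusted p below 0.05), which is 31.6% of the members against 7.84% of all 24697 probes tested that were called higher. Before adjustment, 19 of the 38 members had a p under 0.05 by limma, 2 of them lower, against 32.2% of all probes, and 29 of the 38 had a log2 fold change above 0, against 61.3% of all probes. The complement gene was C8b. The median log2 fold change was 0.33 over the coagulation and fibrinolysis genes and 0.16 over the liver-made complement genes, beside 0.08 over all probes tested. With a normexp background correction these medians were 0.23 and 0.05 beside 0.14, so the complement median was then below that of all probes. The fold changes were small, from 1.25-fold for Fgg to 1.62-fold for F7, with C8b at 2.33-fold.

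**Figure D1:**
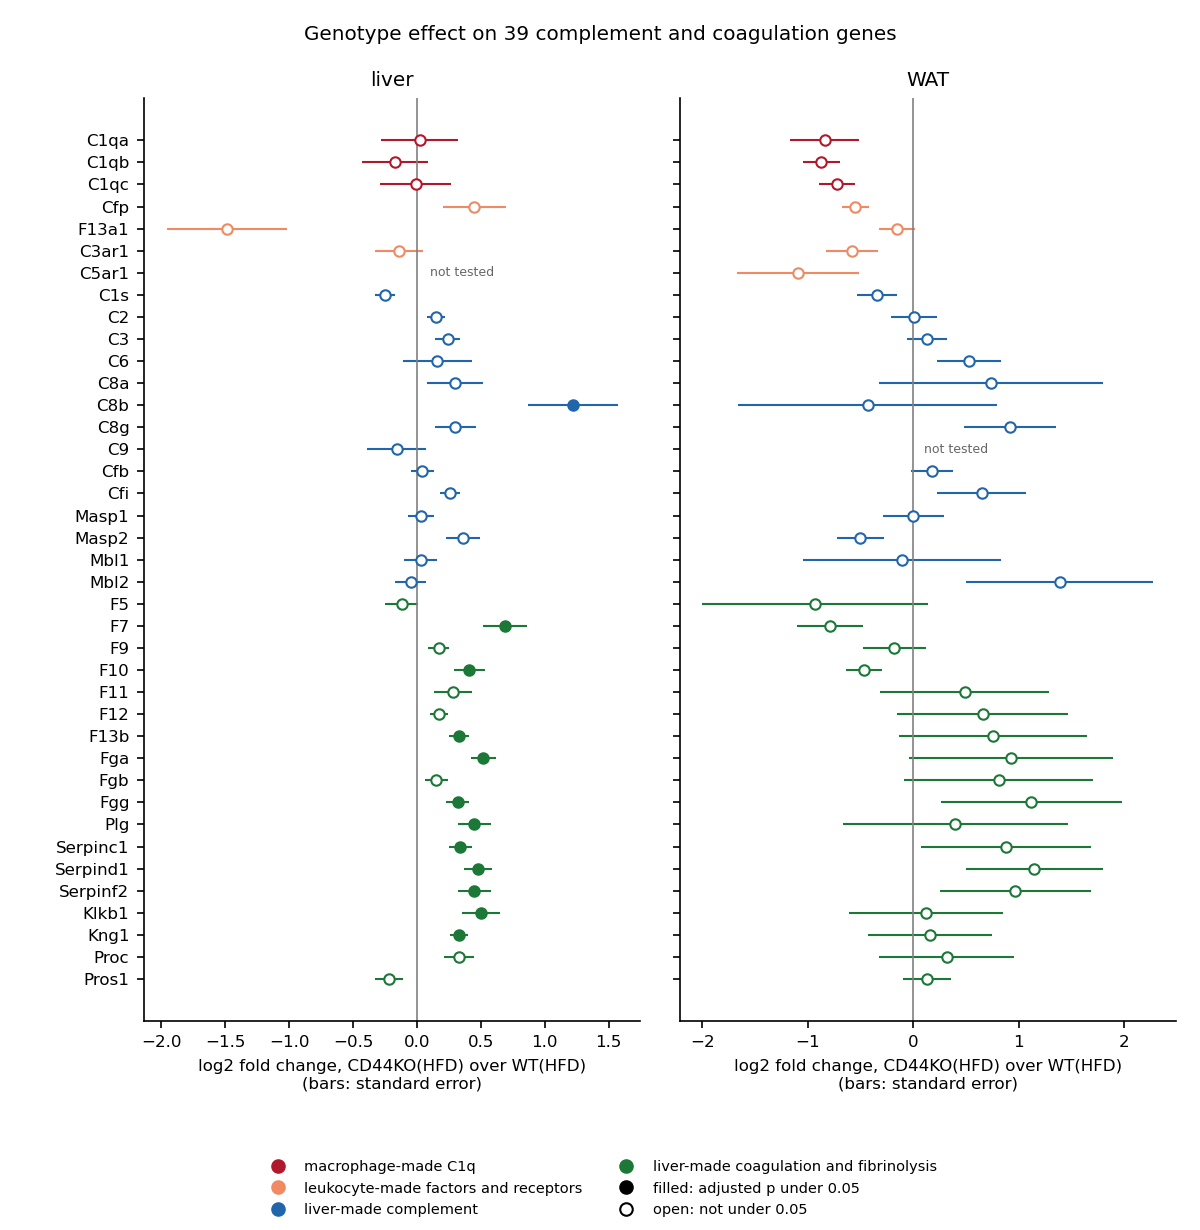
Log2 fold change of each of the 39 genes in CD44KO(HFD) over WT(HFD), in liver (left) and WAT (right), with horizontal bars for the standard error and filled points for an adjusted p below 0.05. The 12 filled points are all in liver and all to the right of 0, 11 of them coagulation or fibrinolysis genes, and in WAT the 3 C1q chains lie between -0.87 and -0.72 with no filled point.

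Fibrinogen, the protein that thrombin turns into the clot, is built from chains encoded by Fga, Fgb and Fgg, which lie side by side on chromosome 3. Fga had levels of 5.30, 5.29, 5.42, 5.53 and 5.44 on WT(HFD) liver arrays 1 to 5 and of 5.75, 6.05, 5.65, 6.06 and 6.08 on CD44KO(HFD) liver arrays 1 to 5. All CD44KO(HFD) arrays were above all WT(HFD) arrays, and the log2 fold change was 0.52 (standard error 0.10, limma, adjusted p = 0.017; two-sided exact permutation p = 0.00794, the smallest that 5 against 5 arrays can give). Fgg stood at 8.66, 8.76, 8.95, 8.99 and 8.84 in WT(HFD) liver and at 9.16, 9.28, 9.03, 9.26 and 9.08 in CD44KO(HFD) liver. These groups also did not overlap, by a narrow gap, with a log2 fold change of 0.32 (standard error 0.09, limma, adjusted p = 0.0383). Fgb was at 9.28, 9.37, 9.57, 9.61 and 9.5 in WT(HFD) liver against 9.76, 9.73, 9.52, 9.62 and 9.46 in CD44KO(HFD) liver. Here the genotypes overlapped, and the log2 fold change of 0.15 (standard error 0.09, limma, adjusted p = 0.279) was within the spread of the arrays. The probes lie on mm7, the build named in the files, at chr3:83136441-83136500 for Fga, chr3:83147097-83147156 for Fgb and chr3:83119588-83119647 for Fgg.

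The 250 bases before the start of these 3 genes and of F13b, another member without overlap, are shown because hepatocyte factors are known to act on such promoters. Sequences are from RefSeq on GRCm38.p6, 5′ to 3′ on the strand of the gene, at chr3:83025903-83026152 (+) for Fga, chr3:83049864-83050113 (-) for Fgb, chr3:83007474-83007723 (+) for Fgg and chr1:139501457-139501706 (+) for F13b. Capitals mark matches, on either strand, to GTTAAT (a core of sites for HNF1, which reads ATTAAC on the other strand), TTGCNNAA (a core for C/EBP factors) and CTGGGA (a core of interleukin-6 response elements); no match overlaps another.
Fga: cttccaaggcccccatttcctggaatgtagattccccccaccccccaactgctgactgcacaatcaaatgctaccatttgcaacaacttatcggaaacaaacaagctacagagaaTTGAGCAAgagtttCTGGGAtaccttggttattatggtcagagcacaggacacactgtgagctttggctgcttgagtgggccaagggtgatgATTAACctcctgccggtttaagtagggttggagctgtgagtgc
Fgb: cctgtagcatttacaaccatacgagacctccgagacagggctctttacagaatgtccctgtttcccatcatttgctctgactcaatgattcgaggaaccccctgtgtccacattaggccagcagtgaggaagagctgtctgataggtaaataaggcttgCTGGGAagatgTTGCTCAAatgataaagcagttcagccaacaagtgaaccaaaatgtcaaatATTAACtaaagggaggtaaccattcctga
Fgg: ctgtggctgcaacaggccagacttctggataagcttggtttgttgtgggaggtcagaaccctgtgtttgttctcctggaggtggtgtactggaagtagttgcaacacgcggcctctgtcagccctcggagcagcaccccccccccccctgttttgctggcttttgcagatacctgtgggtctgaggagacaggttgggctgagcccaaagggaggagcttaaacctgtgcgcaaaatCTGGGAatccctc
F13b: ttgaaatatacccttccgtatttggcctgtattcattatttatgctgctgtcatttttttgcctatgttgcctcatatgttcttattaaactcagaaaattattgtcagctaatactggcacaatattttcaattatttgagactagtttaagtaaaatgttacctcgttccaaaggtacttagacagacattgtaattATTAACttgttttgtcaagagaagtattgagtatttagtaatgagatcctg

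Fga and Fgb hold a match to each of the 3 motifs, Fgg holds 1 to CTGGGA and F13b 1 to GTTAAT. Thus Fgb, whose level did not pass the test, carries the same motifs as Fga, which did. A window was at hand for 15 of the 18 coagulation genes. Matches to GTTAAT occur in 3 of these 15 against 7.49% of 27025 genes, to TTGCNNAA in 5 of 15 against 10.8%, and to CTGGGA in 8 of 15 against 29.8%. Of the liver-made complement genes, among which only C8b was called, 9 had a window. GTTAAT occurs in 2 of these 9, TTGCNNAA in 2 and CTGGGA in 3, so the matches were not confined to the coagulation genes. Of the members called higher in liver, 10 had a window, and 3 of these hold GTTAAT, 2 hold TTGCNNAA and 5 hold CTGGGA. These counts describe letters in a window and are not evidence of binding.

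The factor VII gene F7, whose product starts clotting once it meets tissue factor, was at 3.27, 3.41, 3.57, 3.88 and 3.79 in WT(HFD) liver and at 4.55, 4.52, 3.84, 4.48 and 3.99 in CD44KO(HFD) liver. CD44KO(HFD) replicate 3 fell within the WT(HFD) range and the other 4 were above it, and the log2 fold change was 0.69 (standard error 0.17, limma, adjusted p = 0.0304). Levels of F10, encoding the protease that activates prothrombin, were 7.04, 7.16, 7.37, 7.55 and 7.36 against 7.84, 7.80, 7.42, 7.89 and 7.60. It overlapped in the same array and differed by 0.41 (standard error 0.12, limma, adjusted p = 0.0493). F13b codes for the carrier subunit of the factor that crosslinks fibrin. Its levels were 3.64, 3.61, 3.83, 3.84 and 3.81 in WT(HFD) liver against 4.08, 4.05, 3.96, 4.16 and 4.15 in CD44KO(HFD) liver, with no overlap and a log2 fold change of 0.33 (standard error 0.08, limma, adjusted p = 0.0234).

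The contact factors start the intrinsic pathway and release kinins. Kng1, the kininogen gene, was at 7.58, 7.63, 7.72, 7.73 and 7.71 in WT(HFD) liver and at 8.09, 8.02, 7.85, 8.11 and 7.96 in CD44KO(HFD) liver. The groups did not overlap (log2 fold change 0.33, standard error 0.07, limma, adjusted p = 0.0206), and a second Kng1 probe rose by 0.59 (limma, adjusted p = 0.0133). Klkb1, the prekallikrein gene, was at 2.63, 2.79, 2.82, 3.04 and 2.82 against 3.42, 3.62, 2.89, 3.59 and 3.11, with CD44KO(HFD) replicate 3 inside the WT(HFD) range (log2 fold change 0.50, standard error 0.15, limma, adjusted p = 0.0487). Factors XI and XII of the same group did not pass, with log2 fold changes of 0.28 for F11 and 0.17 for F12.

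Of the 4 members that restrain clotting, Serpinc1 and Serpind1 were called higher and Proc and Pros1 were not called. Serpinc1, which codes for antithrombin, the main inhibitor of thrombin and factor Xa, was at 7.90, 7.97, 8.15, 8.27 and 8.15 in WT(HFD) liver and at 8.42, 8.50, 8.29, 8.52 and 8.40 in CD44KO(HFD) liver. There was no overlap, though the gap was small, and the log2 fold change was 0.34 (standard error 0.09, limma, adjusted p = 0.0342), while a second, dimmer Serpinc1 probe had 0.26 and did not pass (limma, adjusted p = 0.103). Serpind1, the gene of heparin cofactor II, another thrombin inhibitor, was at 6.96, 7.07, 7.20, 7.34 and 7.27 against 7.67, 7.80, 7.37, 7.85 and 7.52. Its groups did not overlap either, and it rose by 0.48 (standard error 0.11, limma, adjusted p = 0.026). Of the protein C system, which inactivates factors V and VIII, Proc had a log2 fold change of 0.33 (limma, adjusted p = 0.0893) and its cofactor Pros1 one of -0.22 (limma, adjusted p = 0.177).

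Plasmin dissolves fibrin. Plg, the gene of its precursor, was at 5.84, 5.95, 6.19, 6.02 and 5.90 in WT(HFD) liver and at 6.25, 6.63, 6.12, 6.79 and 6.37 in CD44KO(HFD) liver, overlapping in CD44KO(HFD) replicate 3 (log2 fold change 0.45, standard error 0.13, limma, adjusted p = 0.0491). A second Plg probe had 0.44 with an adjusted p of 0.055 by limma. Serpinf2, which codes for the main plasmin inhibitor, was at 6.59, 6.67, 7.06, 7.02 and 6.95 against 7.45, 7.54, 7.00, 7.36 and 7.18, again with 1 overlapping array and a log2 fold change of 0.45 (standard error 0.13, limma, adjusted p = 0.0491). The other tested coagulation genes, F5 and F9, had log2 fold changes of -0.12 and 0.17 and did not pass.

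**Figure D2:**
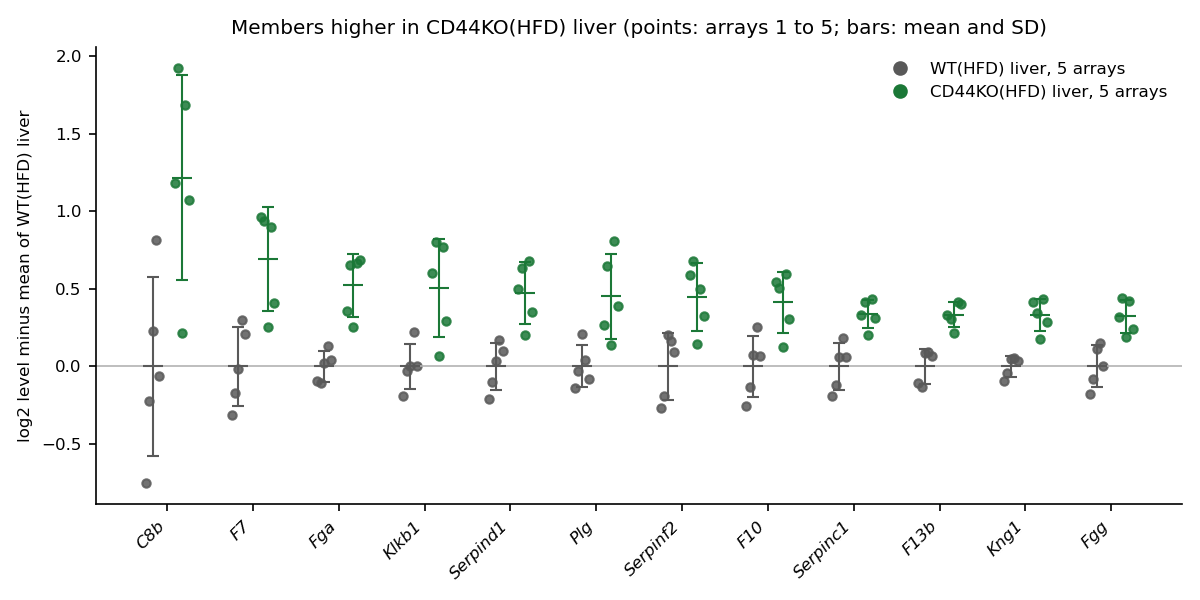
Level of each of the 12 members called in liver minus its mean over WT(HFD) liver (log2), with 5 points per genotype and bars for mean and SD. The CD44KO(HFD) points lie above 0 for all 12 genes, replicate 3 is the lowest of them each time, and 6 genes show no overlap between genotypes.

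CD44KO(HFD) replicate 3 was the lowest of its group for all 12, and WT(HFD) replicate 1 was the lowest of its group for 10. All 5 CD44KO(HFD) arrays lay above the WT(HFD) mean for each of the 12 genes. Of the 38 members, 6, or 15.8%, were higher without overlap, against 7.48% of all probes. All 6 are among the 12, and without CD44KO(HFD) replicate 3 the other 6 did not overlap either. The same array had the highest levels of its group for Cidec, which codes for a lipid droplet protein and was called lower in CD44KO(HFD) liver (limma, adjusted p = 0.0485), at 5.86 against 1.78 to 5.05 on the other CD44KO(HFD) arrays, and for Anxa2, which codes for a plasminogen and tPA binding protein, at 3.12 against 1.15 to 2.55. The part of this in the result was not tested. On each of the 3 slides that held liver arrays, all 12 genes were higher in CD44KO(HFD), by 0.06 to 1.51. The third of these slides held only 1 array of each genotype, the WT(HFD) one being replicate 3. The 12 were called on these same arrays, so their direction by array or by slide gives no separate support.

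Most of the adjusted p-values lay close to the threshold, and the number of calls moved with the setting while the direction did not. The log2 fold change of each of the 12 was above 0 in all 22 alternatives, but leaving out 1 array mostly lowered the number called. It rose to 13 without WT(HFD) replicate 4. Without CD44KO(HFD) replicate 3, 14 members were called, of which F13a1 was lower. Fga alone was called once WT(HFD) replicate 2, CD44KO(HFD) replicate 1 or CD44KO(HFD) replicate 4 was dropped. Dropping WT(HFD) replicate 1 left 2 calls, CD44KO(HFD) replicate 2 left 3, CD44KO(HFD) replicate 5 left 4, and either of WT(HFD) replicates 3 and 5 left 5. With a normexp background correction 0 were called higher, and the adjusted p of Fga was then 0.196 (limma).

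Among the liver-made complement genes, C8b, which codes for a chain of the membrane attack pore, had the largest change. It was at 1.14, 1.67, 2.12, 2.71 and 1.83 in WT(HFD) liver and at 3.08, 3.82, 2.11, 3.58 and 2.97 in CD44KO(HFD) liver, so that CD44KO(HFD) replicate 3 lay within the WT(HFD) range. The log2 fold change was 1.22 (standard error 0.35, limma, adjusted p = 0.0463). Its partner chains C8a and C8g had 0.30 each and did not pass, nor did C6 with 0.16 or C9 with -0.16.

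C3, the central component on which the pathways meet, was at 9.41, 9.48, 9.57, 9.75 and 9.58 in WT(HFD) liver and at 9.87, 9.94, 9.60, 9.92 and 9.68 in CD44KO(HFD) liver. The genotypes overlapped, and the log2 fold change of 0.24 did not pass (standard error 0.10, limma, adjusted p = 0.108). A second, much dimmer C3 probe had 0.42 and did not pass either (limma, adjusted p = 0.0767). C1s, the protease of the C1 complex, went the other way without overlap, from 5.67 ± 0.13 to 5.42 ± 0.09 (SD, n = 5), as did 4.24% of all probes that were lower, and just missed the threshold (log2 fold change -0.25, limma, adjusted p = 0.0641). A second C1s probe had -0.06. Cfi, the protease that inactivates C3b, had 0.26 (limma, adjusted p = 0.0608). Factor B (Cfb), C2, Masp1, Mbl1 and Mbl2 had values between -0.05 and 0.15 by their brightest probes. Dimmer tested probes had -0.08 for C2 and 0.28 and 0.10 for Masp1, and none passed. For Masp2 the brightest probe had 0.36 and did not pass (limma, adjusted p = 0.0819), whereas of 2 dimmer probes 1 had 0.37 and passed (limma, adjusted p = 0.0224) and the other had 0.23 and did not.

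The C1q chains form 1 molecule, are encoded side by side on chromosome 4 and are expressed by macrophages. In WT(HFD) liver C1qa was at 2.94, 3.0, 1.61, 2.69 and 2.65, C1qb at 2.47, 2.52, 1.33, 2.13 and 2.49, and C1qc at 3.78, 3.81, 2.51, 3.53 and 3.67. In CD44KO(HFD) liver they were at 2.65, 2.22, 2.86, 1.99 and 3.26, at 2.08, 1.77, 2.25, 1.52 and 2.49, and at 3.56, 3.1, 3.68, 2.94 and 3.99. The ranges overlapped widely for all 3 chains, with log2 fold changes of 0.02, -0.17 and -0.01 (limma, adjusted p = 0.973, 0.689 and 0.991). WT(HFD) replicate 3 had the lowest value of each chain in its group, and without it the log2 fold changes were -0.22, -0.38 and -0.24, none of which passed. That array was also the lowest for the Kupffer cell gene Marco, at -0.71 against 0.17 to 3.49 on the other WT(HFD) arrays. Of 15 macrophage markers, 1, Mpeg1, was called lower in CD44KO(HFD) liver and none higher, beside 5.76% of all probes lower and 7.84% higher. The log2 fold changes of the 15 ran from -0.96 to 2.28, with 9 below 0 and 6 above. Of 6 Kupffer cell markers, 2, Marco and Timd4, were called higher, and all 6 had positive log2 fold changes, against 61.3% of all probes.

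Of the 4 other members made largely by leukocytes, F13a1, which codes for the catalytic subunit of factor XIII, had the largest difference in liver. It was at -2.23, -2.81, -3.06, -3.74 and -3.45 in WT(HFD) liver against -5.03, -5.55, -3.09, -5.14 and -3.93 in CD44KO(HFD) liver, with 2 CD44KO(HFD) arrays well above background against 5 of WT(HFD). The log2 fold change of -1.49 (standard error 0.47) just missed the threshold (limma, adjusted p = 0.0584), and it passed with the slide as a fixed block. With a normexp correction the value was -0.19 (standard error 0.30, limma, adjusted p = 0.706), and its adjusted p was 0.117 without the filter on dim probes. Properdin (Cfp), the stabiliser of the alternative pathway convertase, had 0.45 in liver (standard error 0.25, limma, adjusted p = 0.238). The C3a receptor gene C3ar1 was at -2.92, -2.77, -2.96, -3.26 and -3.02 against -2.81, -3.57, -3.24, -3.43 and -2.58, with overlap. C5ar1, the C5a receptor gene, was not well above background on any liver array, with levels between -7.25 and -6.10 in WT(HFD) and between -7.10 and -6.29 in CD44KO(HFD), and was not tested there.

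Further genes of the 2 cascades were read from lists of 27 complement and 28 coagulation genes. Of the complement list, 22 were tested in liver, 2 were higher and 5 lower, beside 7.84% of all probes higher and 5.76% lower, with a median log2 fold change of 0.14. C1ra, the gene of the C1r protease, rose by 0.32 (limma, adjusted p = 0.0477). The membrane inhibitors of the pore were lower. Cd59a went from 4.06 ± 0.17 to 2.87 ± 0.05 and Cd59b from 0.21 ± 0.24 to -2.51 ± 0.32 (SD, n = 5 each; limma, adjusted p = 0.000222 and 4.57e-05). These paralogs lie on chromosome 2, and their probes are 1.3 and 1.27 Mb from the Cd44 probe in mm7, so the Cd44 deletion and the chromosome region around it cannot be told apart for them. Colec11, the gene of a lectin that activates complement, differed by -0.38, the second C5a receptor gene C5ar2 by -0.29 and Itgax, which codes for a complement receptor chain of myeloid cells, by -2.01 (limma, adjusted p = 0.0229, 0.0434 and 0.0284).

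Of the coagulation list, 23 were tested in liver, 4 were higher and 2 lower, beside 7.84% of all probes higher and 5.76% lower. The median log2 fold change was 0.04, below the 0.08 of all probes tested, with 13 genes above 0 and 10 below. This wider list thus did not share the higher median of the 18 members. The higher genes were F2, encoding prothrombin, with 0.29, Hrg, encoding histidine-rich glycoprotein, with 0.72, Ggcx, the carboxylase on which vitamin K-dependent factors rely, with 0.40, and Tmprss6, a hepatocyte membrane protease, with 0.36 (limma, adjusted p between 0.0256 and 0.0423). The lower ones were Plat, encoding tissue plasminogen activator, with -1.45 (limma, adjusted p = 0.0104), and Anxa2, with -1.67 (limma, adjusted p = 0.0185). Of 14 regulators of hepatocyte genes, Cebpa rose by 0.28 and Nr1h4, the bile acid receptor FXR, by 0.46, and Il6st, the signalling chain shared by interleukin-6 family receptors, was lower by a log2 fold change of -0.39 (limma, adjusted p = 0.0384, 0.0219 and 0.0196). Of the mesothelium markers, Wt1 was called lower in liver, with -1.45 (limma, adjusted p = 0.0296). None of 11 hepatocyte markers passed in liver (limma, lowest adjusted p = 0.0612), with a median of 0.22 and Alb at 0.04. Their log2 fold changes ran from -0.15 to 0.94, and 10 of the 11 were above 0, against 61.3% of all probes. Before adjustment, 5 of them, or 45.5%, had a p under 0.05 by limma, against 32.2% of all probes. No gene of the complement, coagulation or regulator lists passed in WAT.

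In WAT, 0 of the 38 members tested were called in either direction (limma), as only 0.0398% of 27660 probes were, 0.0108% higher and 0.0289% lower. Of the 38, 22 had a log2 fold change above 0, against 44.7% of all probes. Before adjustment, 8 members, or 21.1%, had a p under 0.05 by limma against 14.9% of all probes. All 8 were lower in CD44KO(HFD): the 3 C1q chains, Cfp, C3ar1, Masp2, F7 and F10. A dimmer tested Masp2 probe went the other way in WAT, with a log2 fold change of 0.33 (limma, adjusted p = 0.779). C9 was well above background on 3 of 10 WAT arrays and was not tested.

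**Figure D3:**
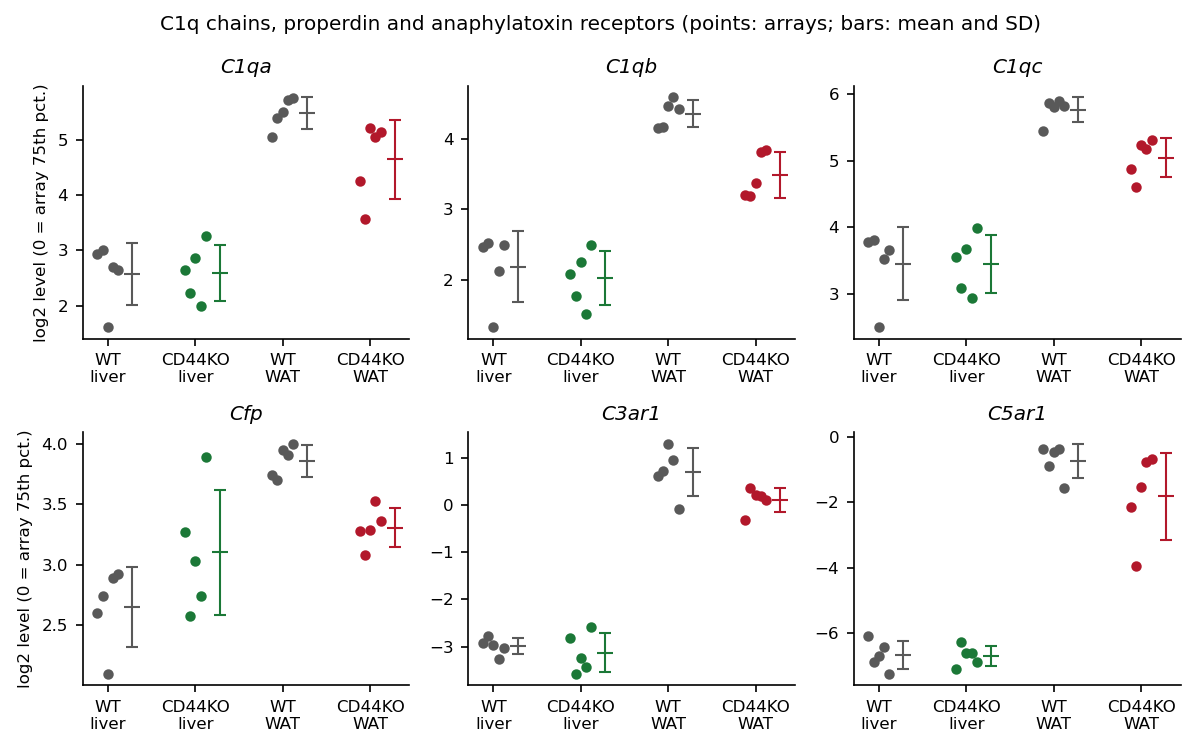
Level (log2, 0 at the 75th percentile of the array) of the 3 C1q chains, properdin (Cfp) and the receptors C3ar1 and C5ar1 on each array, with bars for mean and SD (n = 5). In WAT the CD44KO(HFD) arrays lie below all WT(HFD) arrays for C1qb, C1qc and Cfp, and in liver the genotypes overlap for all 6 genes.

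C1qb was at 4.16, 4.17, 4.47, 4.59 and 4.42 in WT(HFD) WAT and at 3.20, 3.19, 3.38, 3.82 and 3.85 in CD44KO(HFD) WAT. No CD44KO(HFD) array reached the WT(HFD) range, and the log2 fold change was -0.87 (standard error 0.18, limma, adjusted p = 0.165; two-sided exact permutation p = 0.00794). C1qc was at 5.44, 5.86, 5.80, 5.89 and 5.82 against 4.88, 4.61, 5.24, 5.17 and 5.31, also with no overlap (log2 fold change -0.72, standard error 0.17, limma, adjusted p = 0.169). C1qa was at 5.06, 5.39, 5.50, 5.72 and 5.76 against 4.26, 3.56, 5.22, 5.06 and 5.14. Its ranges overlapped, since WT(HFD) replicate 1 was within the CD44KO(HFD) range, and its log2 fold change was -0.84 (standard error 0.33, limma, adjusted p = 0.28). Cfp had 3.74, 3.70, 3.95, 3.91 and 4.0 in WT(HFD) WAT against 3.28, 3.08, 3.29, 3.53 and 3.36 in CD44KO(HFD) WAT, with no overlap and a log2 fold change of -0.55 (standard error 0.13, limma, adjusted p = 0.169).

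Thus 3 of 38 members, or 7.89%, were lower without overlap, against 2.08% of all probes in WAT, and none was higher without overlap, against 4.1% of all probes (6.18% in either direction). Without WT(HFD) replicate 1, the array that stood apart, the log2 fold changes were -0.94 for C1qa, -0.92 for C1qb, -0.80 for C1qc and -0.58 for Cfp, with adjusted p-values between 0.104 and 0.242 (limma). Within the 2 slides that held both genotypes, all 4 genes were lower in CD44KO(HFD), by -1.04 to -0.33, and the third slide held CD44KO(HFD) arrays only. One of the 2 slides held only 1 CD44KO(HFD) array, and the split uses the same arrays, so it gives no separate support. With array weights, which count less consistent arrays less, C1qb, C1qc and Cfp passed at -0.55, -0.56 and -0.48 (limma, adjusted p between 0.00388 and 0.0112), as did 19.1% of all probes. The scaling moved all genes in WAT: with the median of each array subtracted, the median log2 fold change of all probes was 0.42 in place of -0.06, and C1qa, C1qb and C1qc were then at -0.36, -0.39 and -0.24, or -0.78, -0.81 and -0.66 relative to that median. Cfp was at -0.07, or -0.49 relative to it.

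Macrophage markers had the same sign as C1q in WAT, without calls. Of 15 tested in WAT, 14 had negative log2 fold changes, with a median of -0.35 (-0.21 without CD44KO(HFD) replicate 2) and a range of -0.75 (Msr1) to 0.08 (Lyz2), and 0 were called (limma, 4 at an unadjusted p under 0.05). Their summed level ran from 9.12 to 9.59 on WT(HFD) arrays and from 9.02 to 9.47 on CD44KO(HFD) arrays, and that of the C1q chains from 6.56 to 7.09 and from 5.50 to 6.48. Markers of mesothelium, the lining of the fat pad, also had negative log2 fold changes, 6 of 6 from -2.70 to -0.48, and none was called. Adipocyte markers had positive ones, 9 of 9 from 0.17 to 1.10 with a median of 0.63, of which 2 were higher without overlap and none was called. Their part in the C1q values was not tested.

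The anaphylatoxin receptors were well above background on all 10 WAT arrays. C3ar1 was at 0.61, 0.71, 1.29, 0.95 and -0.09 in WT(HFD) WAT and at -0.31, 0.35, 0.21, 0.19 and 0.11 in CD44KO(HFD) WAT. The ranges overlapped through WT(HFD) replicate 5 (log2 fold change -0.58, standard error 0.25, limma, adjusted p = 0.32), and a second probe gave -0.58 too. C5ar1 was at -0.35, -0.87, -0.46, -0.36 and -1.56 against -2.15, -3.94, -1.53, -0.76 and -0.67. Its spread was wide in CD44KO(HFD), with a log2 fold change of -1.09 (standard error 0.58, limma, adjusted p = 0.401). Without CD44KO(HFD) replicate 2 it was -0.56, and with array weights -0.02. F13a1, high in WAT at 3.63 ± 0.27 and 3.48 ± 0.19 (SD, n = 5), had -0.15 there.

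C3 was at 6.90, 7.79, 7.45, 7.38 and 7.62 in WT(HFD) WAT and at 7.70, 7.50, 7.83, 7.31 and 7.45 in CD44KO(HFD) WAT, and the groups overlapped (log2 fold change 0.13, standard error 0.19, limma, adjusted p = 0.741). The dimmer C3 probe went the other way in WAT, with a log2 fold change of -0.51 (limma, adjusted p = 0.563). C2 and Cfb, further complement genes that fat tissue expresses, had 0.01 and 0.18, and C1s had -0.34. Of the clotting factors, F7 and F10 had -0.79 and -0.47 in WAT (limma, adjusted p = 0.285 and 0.261), against positive changes in liver. With the median of each array subtracted, F7 was at -0.31 and F10 turned to 0.02, or -0.41 relative to the median of all probes.

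Many of the other liver-made genes spread over a wide range in WAT, and 14 of the 32 liver-made members had the same 2 lowest arrays. Fgb was at 1.62, 3.01, -1.44, 1.80 and -1.23 in WT(HFD) WAT and at 0.93, 0.19, 2.97, 1.89 and 1.82 in CD44KO(HFD) WAT. Fgg followed with 0.16, 1.69, -2.40, 0.86 and -2.16 against 0.10, -0.55, 2.40, 0.92 and 0.85, and Fga, dimmer, with -2.11, -2.01, -6.40, -4.54 and -5.47 against -4.16, -5.15, -2.09, -2.18 and -2.29. In each of the 3, WT(HFD) replicates 3 and 5 were the lowest, and the groups overlapped widely. Their log2 fold changes were 0.81, 1.12 and 0.93 with standard errors of 0.86 to 0.97 (limma, adjusted p between 0.537 and 0.66).

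Albumin, which only hepatocytes make in quantity, was lowest on the same arrays. Alb was at 2.90, 4.66, 0.61, 3.95 and 1.12 in WT(HFD) WAT and at 2.82, 2.60, 5.17, 4.23 and 3.95 in CD44KO(HFD) WAT, against 10.25 in WT(HFD) liver. WT(HFD) replicates 3 and 5 were the 2 lowest WAT arrays in 14 of the 32 liver-made members, or 43.8%, in 8 of 11 hepatocyte markers and in 2.57% of all probes tested in WAT, a count made after the values were seen. In WAT the median log2 fold change was 0.87 over the hepatocyte markers, beside 0.45 for the coagulation genes and 0.13 for the liver-made complement genes, and none was called. These medians depended on single arrays. Without WT(HFD) replicate 1 that of the coagulation genes was 1.02 and that of the complement genes 0.35. Without WT(HFD) replicate 3 the medians were 0.08 and -0.01, with 0.36 over the hepatocyte markers, and without WT(HFD) replicate 5 they were 0.14, 0.18 and 0.47. Without CD44KO(HFD) replicate 3 they were 0.17, 0.06 and 0.55, and with CD44KO(HFD) replicate 2 dropped the coagulation median was 0.73. Dropping WT(HFD) replicate 2 gave 0.69 for the coagulation and 0.22 for the complement genes. The summed level of the 11 hepatocyte markers lay between 5.16 and 6.5 in WT(HFD) WAT and between 6.30 and 7.12 in CD44KO(HFD) WAT. This sum does not stand for Alb: on WT(HFD) replicate 3, where Alb was at 0.61, most of it came from other markers. The part of liver RNA in the WAT values of these members was not tested.

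**Figure D4:**
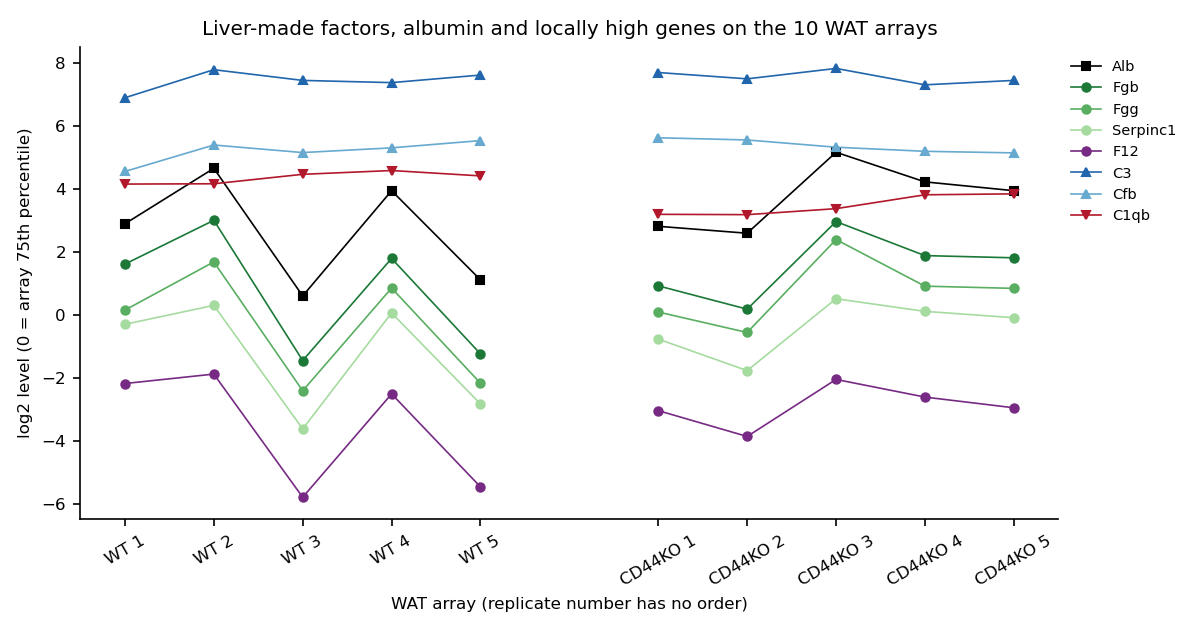
Level (log2, 0 at the 75th percentile of the array) of the hepatocyte marker Alb and of 7 members on the 10 WAT arrays, with lines joining the values of a gene within a genotype only to guide the eye. Alb, Fgb, Fgg, Serpinc1 and F12 fall together on WT 3 and WT 5, while C3 stays between 6.90 and 7.83 and Cfb between 4.56 and 5.63.

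Whether a change differed between the tissues was asked by an interaction term over all 20 arrays. All arrays were treated as independent, since the labels do not state whether liver and WAT arrays come from the same mice. The p-values of the interaction rest on that assumption. It was called for 1 of 39 members, F10, against 1.15% of 28998 probes, and 7 members had a p under 0.05 before adjustment, against 15.8% of all probes. The log2 fold change of F10 in liver exceeded that in WAT by 0.88 (standard error 0.21, limma, adjusted p = 0.0464). F10 was at 1.09, 1.66, 1.45, 1.69 and 1.70 in WT(HFD) WAT and at 1.19, 0.86, 1.34, 1.0 and 0.87 in CD44KO(HFD) WAT, so its genotypes overlapped in WAT. The call was kept without WT(HFD) liver replicate 4, CD44KO(HFD) liver replicate 3, WT(HFD) WAT replicate 1 or CD44KO(HFD) WAT replicate 3, and lost without any other single array. F7, the neighbour of F10 on chromosome 8, had a larger difference of 1.48 with a wider error (standard error 0.37, limma, adjusted p = 0.0561), and Cfp had 1.0 (standard error 0.29, limma, adjusted p = 0.0919). For C1qa, C1qb and C1qc the differences were 0.86, 0.71 and 0.72 and did not pass (limma, adjusted p between 0.298 and 0.385). Among the further genes of the cascades, Cd59b and Vwf, the gene of von Willebrand factor, passed (limma, adjusted p = 0.00605 and 0.049).

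The members differed in where they were expressed, as a description without a test, since the tissues were hybridised on separate slides and scanners and the effects of these cannot be told apart from tissue. In WT(HFD) mice, 31 members had all liver arrays above all WAT arrays, 7 had all WAT arrays above all liver arrays, and only Pros1 overlapped, at 2.88 in both. Of all 28827 probes compared, 27.1% were higher in liver and 29.5% higher in WAT by the same criterion. The 7 were the C1q chains and the leukocyte-made members: C1qa was 7.5-fold, C1qb 4.51-fold, C1qc 4.93-fold, Cfp 2.31-fold, C3ar1 12.8-fold and F13a1 103-fold higher in WAT, and C5ar1 was not well above background on any liver array. Of the 32 liver-made members, 25 were at least 4 log2 units higher in liver, up to 1250-fold for Mbl2 and 1380-fold for F12. The other 7 were Pros1, C2 (2.37-fold higher in liver), C1s (3.51-fold), F7 (4.01-fold), C3 (4.37-fold), C6 (6.69-fold) and Cfb (7.71-fold). All 7 were well above background on all 10 WAT arrays, but so were most of the other liver-made members. Of the 32, only 8 had any WT(HFD) WAT array that was not well above background.

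**Figure D5:**
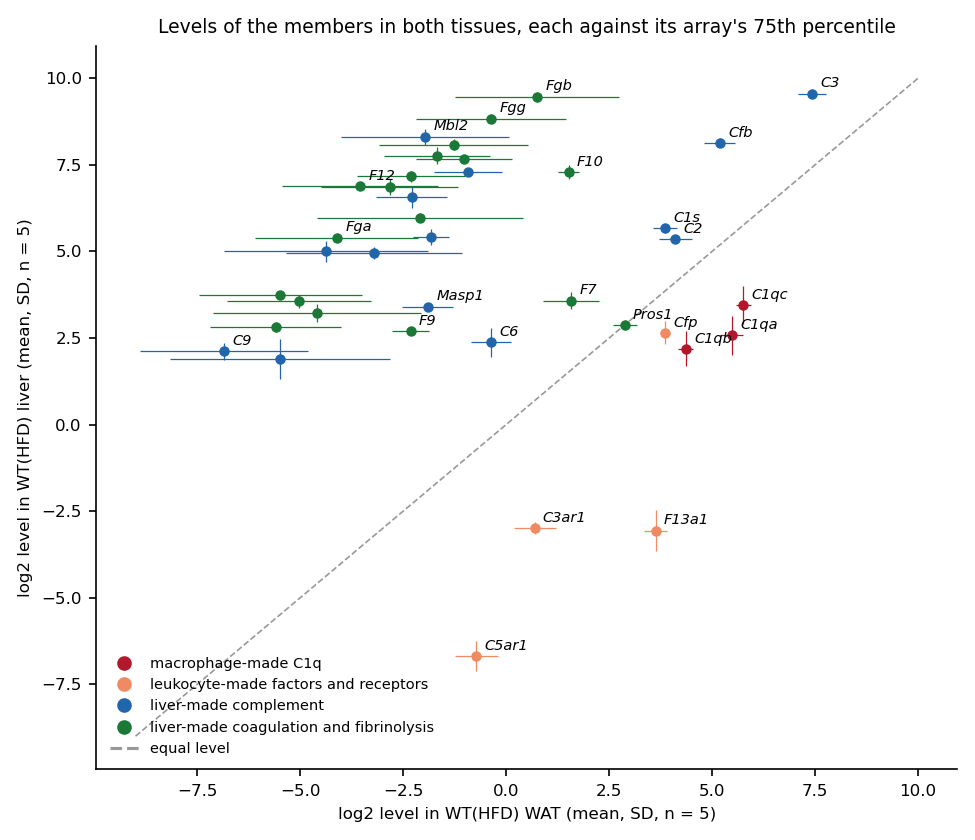
Mean level of each member in WT(HFD) WAT (horizontal axis) and WT(HFD) liver (vertical axis), log2 against the 75th percentile of the array, with SD bars (n = 5) and a dashed line at equal levels. C1q chains, Cfp, F13a1 and the receptors lie below the line, Pros1 lies on it, and C2, C1s, C3, Cfb, F7 and C6 lie nearer to it than the other liver-made genes.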

How the data were processed

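Each sample was 1 Agilent mouse 44k array with a single dye. Per the file headers, the authors' software Feature Extraction 9.5.3.1 subtracted a fitted surface, corrected trends, replaced the dimmest signals by estimates and marked spots more than 13 background SDs up as well above background. The deposited processed signal and the equal series table are linear intensity values without scaling between arrays.

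From these, log2 levels were computed relative to the 75th percentile of each array, without outlier spots and as the mean over a probe's spots. A probe was tested where at least 3 arrays of some group read it well above background, and genotypes were compared within each tissue with limma 3.58.1 (R 4.3.3), with Benjamini-Hochberg adjustment over all probes tested and a threshold of 0.05. For single members, an exact permutation test (two-sided, 252 relabellings) has 0.00794 as its smallest p. Symbols are those of the files or current ones by accession (22951 of 41174 probes matched). The labels do not state that replicates are separate animals, so p-values measure the spread between arrays, whose number limits precision. On data simulated with independent noise and 200 changed probes, the test recovered 75% of 2-fold and 94% of 4-fold changes in liver (24671 probes). In WAT it recovered 34% and 72% (27516 probes). Changes below 2-fold, the size of all liver calls but C8b, were not simulated.

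The members and lists were chosen with earlier results of these data known. Named genes were all members, with values per array for those called, C1q, C3, fibrinogen and the receptors, and, of the other complement, coagulation and regulator genes called, the 10 with the largest change. The remaining called genes of these lists were named after their values were seen, and 1 called gene is not reported here. Alternatives covered the background correction, scaling, filter, slide, replicate number, array weights, probe choice, samples in the fit and each array left out. Figures used matplotlib 3.10.9 and Python 3.11.15.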

Additional observations from a re-analysis of the deposited data

Results flagged for a closer look

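In 8 of 156 groups of 5 arrays, 1 array stood apart from the other 4. This is about the share of 1 in 20 groups that chance alone gives. WT(HFD) liver replicate 3 accounted for 4 of them: C1qa at 1.61 (others 2.65 to 3.0), C1qc at 2.51 (others 3.53 to 3.81), C1s at 5.89 (others 5.57 to 5.65) and Pros1 at 3.15 (others 2.78 to 2.86). CD44KO(HFD) WAT replicate 2 was low for C6 at -0.72 (others 0.25 to 0.48) and for F5 at -7.06 (others -5.38 to -4.85). In WT(HFD) WAT, C1qc was low on replicate 1 at 5.44 (others 5.80 to 5.89) and Masp2 on replicate 5 at -2.60 (others -1.70 to -1.48). The genotype effect on F10 differed between the tissues by the interaction test, with a log2 fold change 0.88 higher in liver than in WAT.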

How the results depend on the processing

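The 12 liver calls became 0 with a normexp background correction or with 1 fit of all 20 arrays and 1 (Fga) without a filter on dim probes, and left-out arrays gave 1 to 13. The other 8 alternatives gave between 9 and 13. The count of liver members called lower, 0 in the report, was 1 with quantile normalization (C1s), and 1 with probes well above background on all 5 arrays, with the slide as a fixed block or with 1 fit of 20 arrays (F13a1), and 2 with the slide as a random block or array weights (C1s and F13a1). It was 0 to 1 with an array left out, 1 without CD44KO(HFD) replicate 3. Within a tissue, replicate numbers showed no clear pairing of WT(HFD) with CD44KO(HFD) arrays. Same-numbered liver arrays correlated with r from -0.0379 to 0.417 and WAT arrays with r from -0.212 to 0.0919, not all above 0.1. The replicate block left 1 member called higher in liver (Fga) and 0 in WAT. Whether liver and WAT arrays of the same number came from the same mouse was not tested.

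In WAT, array weights called 8 members lower and 2 higher, and 1 fit of 20 arrays called 1 lower (C1qb). Left-out arrays gave 0 in both directions. The median log2 fold change of the C1q chains was -0.36 with the median of each array subtracted and -0.96 to -0.61 with an array left out. In liver that of the coagulation genes was 0.30 to 0.37 with an array left out and 0.20 to 0.35 otherwise, lowest with quantile normalization. That of the liver-made complement genes was 0.10 to 0.22 and 0.05 to 0.19, lowest with quantile normalization or normexp. The interaction call became 0 with normexp or without a filter, and 0 to 3 with an array left out. The cause was not tested. Over all probes, the liver calls split 1936 higher to 1422 lower, 215 to 425 with normexp and 186 to 539 with 1 fit of 20 arrays. The WAT calls, 11 in all, were 35 with normexp, 19 with the median subtracted, 1817 with 1 fit of 20 arrays and 5293 with array weights.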
